A study of Rattus norvegicus with 12 samples.

Results

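Bicuculline (BC) blocks the GABA-A receptor, the ligand-gated chloride channel through which GABA inhibits most neurons, so that a cultured network freed from this inhibition fires in bursts. The comparison described here set 4 microarrays of rat hippocampal neuron cultures kept for 48 h in 20 μM BC against 4 arrays of cultures in vehicle (CTL), 8 of the 12 arrays of the series, and asked which genes such raised activity induced or repressed. The members were chosen by their sample labels alone, and all 41012 noncontrol probes of the array were read. The remaining 4 arrays were from cultures in tetrodotoxin (TTX, 0.5 to 1 μM), a toxin that blocks sodium channels and silences firing, and their values are set beside those of BC where a gene is described. All cultures were made from E18.5 embryos of Sprague-Dawley rats, plated at high density and treated at 10 to 13 days in vitro, and the labels name no genetic change. The labels give 0.1% DMSO as the vehicle of the CTL cultures, whereas the study's methods give water for the controls of these drugs, so a solvent difference between BC and CTL cannot be told apart from the drug. Neither source tells if the 4 RNA samples of each group were taken from different cultures. The p-values therefore measure only how these samples vary, and that variation may be technical.

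Neurons answer a rise in firing with calcium entry, which drives kinase cascades to the nucleus and a first wave of transcription factors such as those of the FOS, EGR, NR4A and NPAS4 families. Their targets include neurotrophins, secreted proteases that cut the extracellular matrix around synapses, and phosphatases and RGS proteins that damp the signal again. In brain tissue, inflammatory and vascular genes are carried largely by microglia, astrocytes and the cells of blood vessels, and mitochondria supply the energy that firing costs. In bulk RNA, fewer cells of a type and less RNA per cell cannot be told apart.

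Signals are given as log2 of the background-subtracted array signal after quantile normalization, and a level is compared only with the level of the same probe on other arrays. The brightest probe stood for a gene, which was called where limma gave a false discovery rate under 0.05 and the level changed by a factor of 1.5 or more either way. BC induced 762 of 35694 genes (2.13%) and repressed 524 (1.47%), 3.6% in either direction. The median log2 fold change was 0.88 among the induced and −0.84 among the repressed genes, and 60 genes rose but 10 fell by 2 or more on the log2 scale. The 4 BC and 4 CTL values did not overlap for 752 of the induced and 508 of the repressed genes. Over all genes, 4872 of 35694 showed no overlap. Calls were made on these same arrays and favour separated groups, so the counts add no support to them. A gene is called dim where its probe was not well above background. Of the induced genes 99 were dim on every CTL array, and of the repressed genes 47 were dim on every BC array. From 74.1 to 77.5% of probes per CTL array and 75.6 to 78.1% per BC array were well above background. With normexp background correction, which adds an offset and so compresses dim signals, the counts were 396 and 268. The controls GAPDH and ACTB had log2 fold changes of 0.033 and −0.065 and were not called. Each of 4 slides carried 1 array per group, and arrays on slides 1 and 3 resembled each other, as did those on slides 2 and 4. Within slides 1 and 3 the same fit called 659 genes higher and 556 lower, within slides 2 and 4 it called 38 and 24, and with the arrays of a group averaged within each pair of slides, which leaves 2 values per group, no gene was called (7830 genes had an unadjusted p under 0.05).

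**Figure D1:**
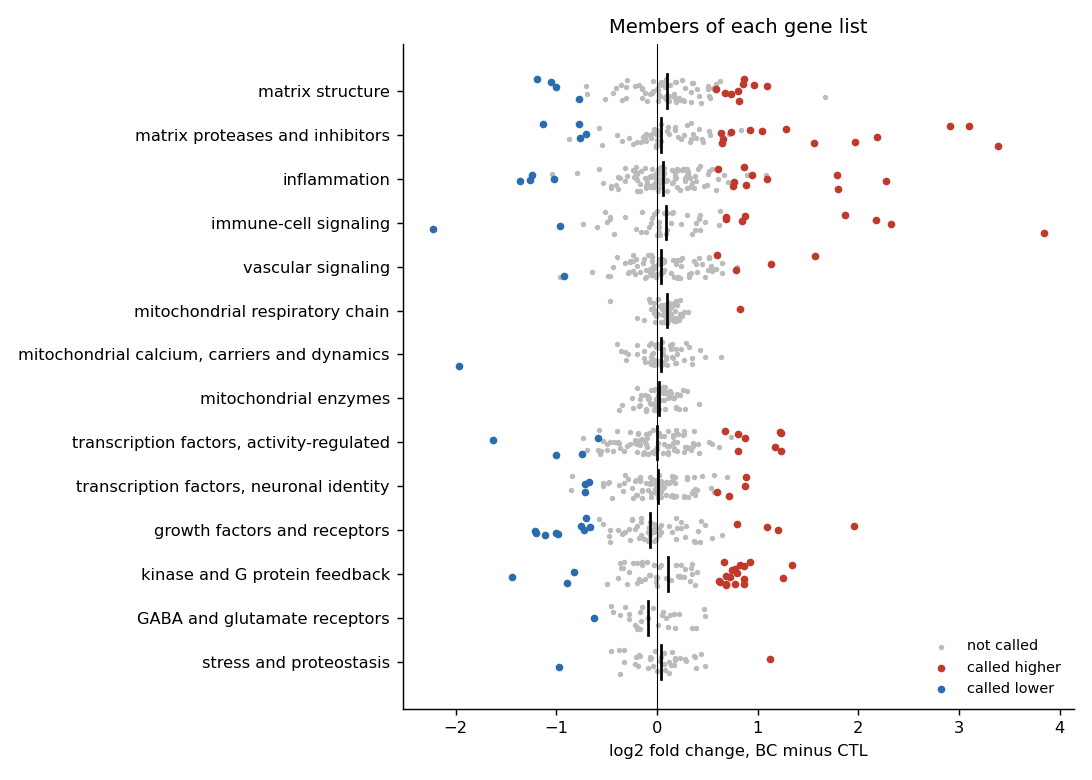
Log2 fold change (BC minus CTL) of every measured member of 14 gene lists, one row per list. Red points were called higher, blue points lower and grey points not called, and the black bar is the median of the list; the matrix protease list reaches 3.38 and the 3 mitochondrial lists hold 1, 1 and 0 called genes.

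Over all called genes, the largest rise was 4.1 and the largest fall 3.16 on the log2 scale. Among called genes with a RefSeq gene symbol, those that moved farthest were of very different kinds. The largest rise among such genes well above background on all CTL and BC arrays was that of ARHGDIB. It encodes an inhibitor of small GTPases abundant in blood cells. Its log2 signal was 6.67, 6.84, 7.58 and 6.23 on the CTL arrays and 10.32, 10.61, 11.01 and 10.74 on the BC arrays, a 14.3-fold rise (SE 0.248 on the log2 scale, limma adjusted p = 1.68e-05). Every BC value lay above every CTL value by more than 2 units. CRH, the corticotropin-releasing hormone gene, rose 5.85-fold, from 5.64, 5.93, 6.65 and 5.80 to 8.32, 8.21, 9.01 and 8.67. CYP11B1, which encodes a steroid 11-beta-hydroxylase best known from the adrenal cortex, rose 5.6-fold (SE 0.269). F2RL2, a protease-activated receptor gene, rose 5.56-fold, and IL13RA2, which encodes a decoy receptor of interleukin 13, 5.51-fold. TTX gave these genes log2 fold changes of −2.39 and −2.002. DMP1 and CNMD, genes of mineralized matrix and of cartilage, had log2 fold changes of 2.999 and 2.67, and they were measured above background on 2 and 3 of the 4 CTL arrays. TMPRSS11D, a transmembrane serine protease gene that was dim on every CTL array, rose at least 3.01-fold (limma adjusted p = 5.86e-07).

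The largest falls among called genes with a RefSeq gene symbol were likewise of different kinds. CHODL, which encodes the membrane lectin chondrolectin, fell from 12.77, 12.73, 12.82 and 12.72 to 11.00, 10.72, 10.15 and 10.39 (log2 fold change −2.20, SE 0.176, limma adjusted p = 5.59e-05). SLC1A6, the glutamate transporter EAAT4 gene, fell by 2.03 on the log2 scale. ATP12A, a proton pump subunit gene, fell by 2.16, and ATP2B4, a calcium pump gene of the plasma membrane, fell by 1.498. DIO3, which encodes the deiodinase that inactivates thyroid hormone, fell by 1.64 (SE 0.105), and its other probe fell by 1.23. HTR1A, the serotonin 1A receptor gene, fell by 1.47. PKP2, the desmosomal plakophilin 2 gene, fell by 1.60, and its other 2 probes fell by 1.61 and 1.52. GPR101, an orphan receptor gene, was dim on all BC arrays and at least 2.42-fold lower. It was not called with normexp background correction (log2 fold change −0.36) or within either slide pair. In the TTX cultures CHODL and DIO3 had log2 fold changes of 1.31 and 1.05, opposite to those with BC, while SLC1A6 had 0.25 and PKP2 had −0.54.

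Olfactory receptor genes of one cluster were among the largest rises. The probe of OR10AL5B read 1.20, 1.31, 1.75 and 1.60 on the CTL arrays and 4.91, 5.45, 5.46 and 5.61 on the BC arrays, a rise of at least 3.57-fold from CTL values that were all dim (limma adjusted p = 1e-06). The probes of 3 neighbours that were likewise dim on all CTL arrays rose with it: OR10AL4B was at least 2.79-fold, OR10AL4C at least 3.63-fold and OR10AL6 at least 2.33-fold higher. The other 2 measured members, OR10AL27 and OR10AL7, had log2 fold changes of 0.46 and 0.20 and were not called. All these neighbours but OR10AL4B were chosen after their values were seen. The 4 probe sequences are printed because 3 of them share runs of bases, so that signal from RNA of one receptor on the probe of another cannot be told apart. Capitals mark the longest run of bases that a probe shares with the OR10AL4B probe (in the OR10AL4B line, the run shared with OR10AL4C). The positions are those of the array annotation, build rn4.
OR10AL6, chr20:697156-697215: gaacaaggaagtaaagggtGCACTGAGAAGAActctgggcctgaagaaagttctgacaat
OR10AL4C, chr20:710775-710834: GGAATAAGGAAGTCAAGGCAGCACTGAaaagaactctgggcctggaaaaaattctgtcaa
OR10AL4B, chr20:738152-738211: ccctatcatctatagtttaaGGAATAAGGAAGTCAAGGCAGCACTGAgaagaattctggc
OR10AL5B, chr20:757290-757349: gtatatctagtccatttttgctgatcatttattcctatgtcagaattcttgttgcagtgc
OR10AL4C shares 27 bases with the OR10AL4B probe and OR10AL6 shares 13, whereas OR10AL5B, printed without capitals, shares no run longer than 8.

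Genes that cut or guard the extracellular matrix mostly rose where they were called. Of 69 measured genes of matrix proteases, their inhibitors and receptors, 13 rose and 4 fell (24.6% called, against 3.6% of all genes), while the median log2 fold change of the list was 0.04 against −0.01 for all genes. By role, 4 of 29 metalloproteinase genes rose and 2 fell, 1 of 10 serine protease genes rose and 1 fell, 2 of 11 genes of glycan-cleaving and cross-linking enzymes rose, and 6 of 19 inhibitor and receptor genes rose and 1 fell.

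MMP3, MMP12 and MMP13, which encode stromelysin, macrophage elastase and a collagenase, lie side by side on chromosome 8 and all rose. MMP3 read 3.95, 4.36, 5.33 and 3.81 on the CTL arrays and 6.94, 7.26, 7.59 and 7.28 on the BC arrays, and it rose 7.49-fold (log2 fold change 2.90, SE 0.332, limma adjusted p = 0.000412). The CTL values of MMP3 spread over more than 1 unit but stayed below all BC values. MMP12 read 2.36, 2.19, 1.37 and 2.08 on the CTL arrays, where it was dim throughout, and 5.48, 5.246, 5.61 and 5.20 on the BC arrays, and it rose at least 3.63-fold (limma adjusted p = 0.00012). MMP13 rose 1.9-fold (SE 0.157), from 4.85, 4.71, 5.37 and 5.02 to 5.79, 6.12, 5.97 and 5.78. The other measured members of that gene cluster, MMP7, MMP8 and MMP10, were dim on all CTL and BC arrays. The rises of these low-signal genes shrank with normexp background correction: the log2 fold change of MMP3 became 1.36 and that of MMP12 became 0.67, both still called, and that of MMP13 became 0.37, which was not. PLAUR, SERPINA3N, SERPINB2, TIMP1, KLK8 and ADAMTS5 of the same list were not called either under that correction.

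A promoter stretch of each of these 3 genes and of PLAUR is printed because all 4 hold the 7 letters TGANTCA, the site bound by FOS and JUN dimers (AP-1), from base −87 to base −66 counted from the transcription start. The stretches run from base −120 to base −31, 5′ to 3′ on the coding strand, from RefSeq on GRCr8, with the motif in capitals.
MMP3, chr8:12925161-12925250: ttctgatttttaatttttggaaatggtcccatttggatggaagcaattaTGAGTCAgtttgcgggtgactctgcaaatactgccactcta
MMP12, chr8:12866532-12866621: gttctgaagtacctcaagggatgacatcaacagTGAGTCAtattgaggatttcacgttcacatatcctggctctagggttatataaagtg
MMP13, chr8:12782709-12782798: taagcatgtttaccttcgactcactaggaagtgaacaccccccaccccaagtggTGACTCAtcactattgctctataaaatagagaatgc
PLAUR, chr1:89181243-89181332: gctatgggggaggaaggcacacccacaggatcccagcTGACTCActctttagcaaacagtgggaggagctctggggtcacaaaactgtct
In windows of 300 bases (250 before and 50 after the start), TGANTCA was found on either strand in 8.04% of all 27457 genes with a window, in 6.33% of the 11871 array genes with one that were not called, in 13.1% of the 320 induced genes and in 5.14% of the 214 repressed genes. MMP10 holds it too, at base −61, although its signal was dim throughout, and the window of HPSE holds none. The CRE letters TGACGTCA were in 2.0% of all genes with a window, in 2.6% of those not called, in 1.88% of the induced and in 1.4% of the repressed genes. The EGR letters GCGNGGGCG were in 5.53% of all genes with a window, in 8.32% of those not called, in 6.25% of the induced and in 12.1% of the repressed genes. A match describes the letters in the window and not the binding of a factor.

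MMP9, which encodes gelatinase B and acts on synaptic matrix in hippocampus, rose 3.9-fold (log2 fold change 1.97, SE 0.366, limma adjusted p = 0.00758), from 4.93, 5.55, 6.25 and 4.42 to 7.09, 6.82, 7.76 and 7.35. The CTL arrays of MMP9 were spread wider than the BC arrays, and the groups did not overlap. With the slide pair as a random block its adjusted p was 0.0785, and it was not called. HPSE, the gene of heparanase, which cleaves heparan sulfate chains, rose 8.56-fold (SE 0.163), from 7.70, 7.66, 8.15 and 7.36 to 10.55, 10.83, 11.14 and 10.75. The groups of HPSE stood more than 2 units apart, and with TTX its log2 fold change was −2.0. F2, which encodes prothrombin, rose 2.42-fold. PLAUR, the urokinase receptor gene, rose 2.95-fold, from 4.37, 4.63, 4.39 and 3.66 to 5.65, 5.69, 6.20 and 5.75. The genes of its protease ligand and of tissue plasminogen activator, PLAU and PLAT, had log2 fold changes of 0.44 and 0.21 and were not called.

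SERPINF1, which encodes pigment epithelium-derived factor, an inhibitor of vessel growth, rose 4.56-fold (log2 fold change 2.19, SE 0.218), from 6.61, 6.45, 7.16 and 6.25 to 8.53, 8.48, 9.31 and 8.89. SERPINA3N rose 2.06-fold, SERPING1 (the C1 inhibitor gene) 1.57-fold and SERPINB2 (plasminogen activator inhibitor 2) 1.56-fold. The other SERPING1 probe had a log2 fold change of 0.105 and was not called. TIMP1, the inhibitor of metalloproteinases, rose 1.55-fold. Its log2 fold change was 0.93 within slides 1 and 3 and 0.33 within slides 2 and 4. Falls came from A2M, which encodes the broad protease inhibitor alpha-2-macroglobulin (log2 fold change −0.78), from KLK8, the neuronal serine protease neuropsin (−1.13), from ADAMTS5, an aggrecan-cleaving protease (−0.70), and from ADAM15 (−0.77). ADAM15 differed between slides as well, at −1.19 within slides 1 and 3 and −0.34 within slides 2 and 4. Housekeeping matrix proteases and TIMP2 were among the 52 genes not called, with log2 fold changes of 0.27 for MMP2, −0.28 for MMP14 and −0.0071 for TIMP2. The calls of TIMP1, TGM2 (a cross-linking transglutaminase, 0.74) and KLK8 were each lost when any of 6 single arrays was left out (adjusted p up to 0.104, 0.0684 and 0.12), that of ADAMTS5 for 5 arrays (up to 0.0889), that of ADAM15 for CTL replicates 1 and 2 and BC replicates 3 and 4 (up to 0.0571), and that of SERPINB2 for CTL replicate 4 and BC replicate 3, where its log2 fold change was 0.58.

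**Figure D2:**
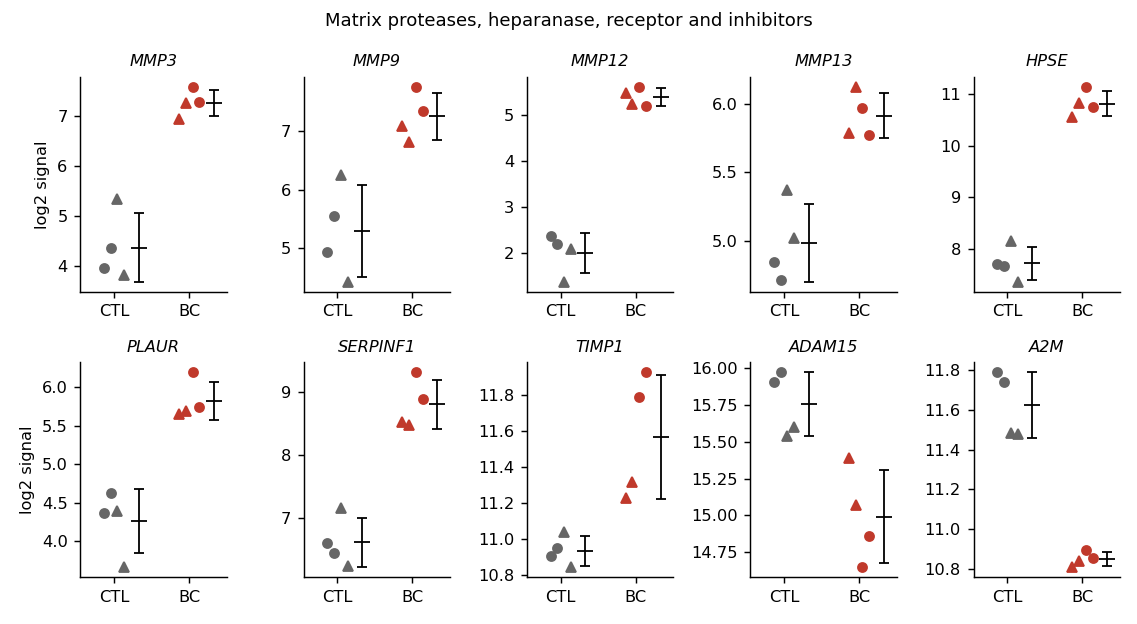
Log2 signal of 10 genes of matrix turnover on each of the 4 CTL (grey) and 4 BC (red) arrays; circles are arrays of slides 1 and 3, triangles arrays of slides 2 and 4, and the black bars give the mean and SD of 4 arrays. In every panel the 2 groups do not overlap, and TIMP1, ADAM15, SERPINF1, MMP3, MMP9 and PLAUR show BC values that separate by slide pair.

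Among 82 genes of matrix structure, 9 rose and 4 fell (15.9% called), with a median log2 fold change of 0.10. The glycoproteins and elastic fibre genes held 9 of these 13 calls. THBS2, the thrombospondin 2 gene, rose 2.13-fold (log2 fold change 1.09, SE 0.16), from 7.18, 7.12, 6.99 and 6.68 to 7.81, 7.93, 8.36 and 8.22. TNC, which encodes tenascin C, a glycoprotein of remodelled matrix, rose 1.95-fold, from 7.42, 7.12, 6.86 and 7.04 to 7.70, 8.03, 8.30 and 8.26. FN1 (fibronectin) rose 1.66-fold and ECM1 1.74-fold, and SPP1 (osteopontin) and the matricellular genes CCN1 and CCN2 had log2 fold changes of 0.81, 0.59 and 0.68. The small proteoglycan genes DCN and LUM, which encode decorin and lumican and lie next to each other on chromosome 7, rose 1.82-fold and 1.81-fold. DCN read 11.48, 11.50, 11.45 and 11.32 against 12.14, 12.36, 12.29 and 12.43 with BC, and the groups of both genes stood clear of each other. With TTX they had log2 fold changes of −0.62 and −0.98.

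Falls in the same list came from MATN2 (matrilin 2), at −1.05, with −0.96 for its other probe, from FBN1 (fibrillin 1), at −0.999, and from COL6A1 (a collagen VI chain), at −0.77. HAS1, which encodes a synthase of hyaluronan, the backbone of perineuronal nets, fell from 7.14, 7.41, 6.66 and 6.42 to 5.45, 5.65, 5.89 and 5.89 (log2 fold change −1.19, SE 0.218, limma adjusted p = 0.00702). No CTL value of HAS1 reached the BC range. The net components themselves were among the genes not called, with 0.09 for ACAN (aggrecan), −0.18 for BCAN (brevican) and 0.10 for NCAN (neurocan). None of 14 basement membrane genes was called by its brightest probe. Of these LAMB3, a laminin chain gene, had −0.044 for that probe, whereas its other 2 probes were called higher, at 1.18 and 1.05. Another probe of ECM1, of CCN1 and of FBN1 was not called (log2 fold changes 0.40, 0.20 and −0.54). The calls of COL6A1, SPP1, CCN1 and CCN2 were lost after 7, 6, 5 and 5 of the 8 single arrays were left out (adjusted p up to 0.0951, 0.107, 0.0962 and 0.0966), and those of SPP1, CCN1 and CCN2 were lost with normexp background correction too.

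Fibroblast markers were measured on the same arrays, since matrix genes are abundant in meningeal fibroblasts. Of 11 measured fibroblast markers, DCN and LUM rose and COL6A1 fell, and the mean log2 signal of the list was 8.84 to 9.04 on CTL arrays and 8.98 to 9.31 on BC arrays. Of the 11, 6 had a log2 fold change above 0 and 5 below. COL1A1, COL3A1 and TWIST1 had −0.094, −0.15 and −0.33, FBLN1 and IGF2 had 0.18 and 0.19, and none of these was called. TWIST1 passed the false discovery rate (limma adjusted p = 0.00766) but not the fold threshold. COL1A2, a collagen I chain gene, read 7.42, 7.67, 7.54 and 7.52 on the CTL arrays and 8.06, 12.45, 8.06 and 8.26 on the BC arrays (log2 fold change 1.67, SE 0.824, limma adjusted p = 0.313). It was not called, its groups did not overlap, and BC replicate 2 lay more than 4 units above the other BC arrays. The part of fibroblasts in the matrix changes was not tested.

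Inflammatory genes rose in number more than they fell, and the best known cytokines were hardly measurable. Of 120 measured genes, 10 rose and 4 fell (11.7% called, median log2 fold change 0.06), and 28 of the 120 were dim on all 8 arrays. Cytokine and chemokine genes held 5 calls among 33, receptors 4 among 33, signaling and transcription genes 2 among 21 and effectors 3 among 33.

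CCL2, which encodes the monocyte attractant MCP-1, read 5.67, 6.75, 5.45 and 6.26 on the CTL arrays and 7.42, 7.83, 8.04 and 8.03 on the BC arrays and rose 3.47-fold (log2 fold change 1.79, SE 0.263, limma adjusted p = 0.00195). Its neighbour on chromosome 10, CCL7, was above background on 1 of 4 CTL arrays and on all 4 BC arrays (log2 fold change 1.79, SE 0.414). CCL3 was dim on all CTL arrays and on 2 of the 4 BC arrays, and it was at least 1.28-fold higher (limma adjusted p = 0.00104). IL18 rose 1.53-fold. In contrast CXCL12, which encodes a chemokine that neurons and meninges use for cell migration, fell from 12.21, 12.37, 12.01 and 12.39 to 11.43, 11.38, 11.05 and 11.01 (log2 fold change −1.03, SE 0.121), although its other probe had 0.09 and was not called. IL1B, IL6 and TNF were dim on every CTL and BC array, and PTGS2, the cyclooxygenase 2 gene, had a log2 fold change of −0.024.

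Among receptors, TNFRSF1B (TNF receptor 2) rose by 1.09 on the log2 scale, above background on 1 CTL array and all BC arrays, and IL1R2, a decoy receptor of interleukin 1, rose by 0.86. IL17RA fell by 1.24. IRF5, a transcription factor of interferon responses, fell from 8.38, 8.24, 8.48 and 8.10 to 6.99, 6.92, 7.17 and 7.08 (log2 fold change −1.26, SE 0.0878, limma adjusted p = 2.94e-05), and its groups stood more than 0.9 apart. REL, an NF-kappaB subunit gene, rose by 0.76, with 1.19 within slides 1 and 3 and 0.33 within slides 2 and 4. The interferon-induced genes MX1 and IFIT2 rose by 0.76 and 0.89, and SELE, the endothelial adhesion gene E-selectin, rose by 0.94. With normexp background correction CCL2, CXCL12, IRF5, MX1 and IFIT2 were still called and the other 9 genes of the 14 were not. CCL7, IL1R2 and IFIT2 lost their calls when any of 5, 6 and 3 single arrays was left out (adjusted p up to 0.0708, 0.0831 and 0.0598), and IL18 fell under the fold threshold without BC replicate 4 or CTL replicate 1 (log2 fold change from 0.52).

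Genes of blood cell signaling rose in these neuron cultures, and 2 of them fell. Of 52 measured genes of immune-cell signaling, 8 rose and 2 fell, beside 3.6% called among all genes, with a median log2 fold change of 0.09. BLNK, which encodes the adaptor of the B cell receptor, rose 4.5-fold, from 7.08, 7.24, 7.65 and 6.78 to 8.92, 9.30, 9.78 and 9.43 (SE 0.202, limma adjusted p = 0.000135). LCP2, the adaptor SLP-76, rose 3.66-fold, and its other probe rose by 2.33 on the log2 scale. LCP2 had a log2 fold change of 2.42 with TTX. SYK, the kinase that these adaptors serve, rose from 4.98, 4.87, 4.84 and 4.97 to 5.70, 5.67, 5.86 and 5.82 (log2 fold change 0.85, SE 0.0759). The spread of SYK within each group was under 0.2. ITGB2, the beta chain of leukocyte integrins, was dim on all CTL arrays and rose at least 2.52-fold. The GTPase-activating genes ARHGAP9, ARHGAP15 and ARHGAP25 rose by 0.87, 0.68 and 0.68. SKAP2, an adaptor of integrin signaling, fell by 0.96, and GNA15, a G protein subunit of blood cells, fell from 6.85, 6.70, 6.16 and 6.53 to 4.58, 4.18, 4.03 and 4.57 (log2 fold change −2.22, SE 0.188). ARHGAP9 was not called without BC replicate 3 or 4 (adjusted p up to 0.0542), and ARHGAP25 had 0.58 without BC replicate 3. SYK, ITGB2, ARHGAP9 and ARHGAP25 were not called with normexp background correction.

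None of 14 microglial markers was called. AIF1, ITGAM, CX3CR1 and TMEM119 were dim on all CTL and BC arrays, while the other 10 were above background on at least 1 array. CSF1R, P2RY12, TYROBP, C1QB, C1QC, CD68, TREM2 and LAPTM5 were above background on all CTL and BC arrays. The first 3 of these had log2 fold changes of −0.081, −0.33 and 0.24. CD68 had −0.43 (limma adjusted p = 0.0371), which passed the false discovery rate but not the fold threshold. TREM2 had 0.42 (limma adjusted p = 0.19), and the groups of CD68 and of TREM2 did not overlap. Of the 14 markers 7 had a log2 fold change above 0 and 7 below. The mean log2 signal of the list was 4.60 to 4.81 on CTL arrays and 4.56 to 4.83 on BC arrays. None of 12 astrocyte markers was called either, with 10.4 to 10.8 on CTL arrays and 10.5 to 10.7 on BC arrays, and GFAP had a log2 fold change of −0.062.

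**Figure D3:**
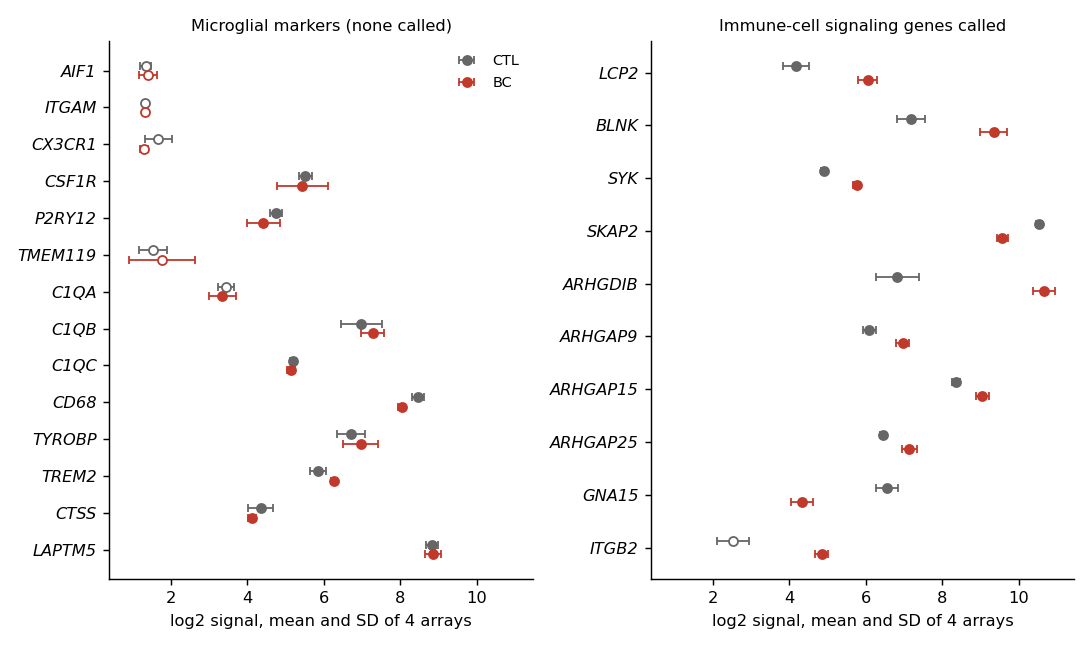
Mean log2 signal and SD of 4 arrays per group for the 14 microglial markers (left) and the 10 called genes of immune-cell signaling (right), CTL in grey and BC in red; open circles mark a gene that was dim on every array of that group. The grey and red means lie close together for the markers and apart for the signaling genes, 2 of which fell.

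Of 83 measured genes of vascular signaling, 4 rose and 1 fell (6.02% called, against 3.6% of all genes), with a median log2 fold change of 0.05. The ligand NPPC (C-type natriuretic peptide), a vessel-relaxing peptide also made by neurons, rose 2.19-fold, from 11.13, 11.06, 11.38 and 11.02 to 12.09, 12.30, 12.33 and 12.39 (SE 0.102, limma adjusted p = 0.000113). NPR3, the receptor that clears this peptide, fell from 7.33, 6.97, 6.72 and 6.60 to 6.32, 5.81, 5.80 and 6.002 (log2 fold change −0.92, SE 0.178). The groups of neither gene overlapped. ACVRL1, which encodes the endothelial activin-like kinase ALK1, rose by 1.57, ECE1, the endothelin-converting enzyme, by 0.60, and APOLD1, an early response gene of vessel lining, by 0.78. VEGFA and its receptor genes KDR and FLT1 had log2 fold changes of −0.14, 0.32 and 0.20 and were not called. ECE1 was under the fold threshold without BC replicate 3, CTL replicate 3 or CTL replicate 4 (log2 fold change from 0.53), and 1 of its other 2 probes, at 0.27, was not called. NPR3, ECE1 and APOLD1 were not called with normexp background correction.

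Of 15 endothelial markers, CLDN5 rose, from above background on 2 of 4 CTL arrays to all 4 BC arrays (log2 fold change 1.65, SE 0.3), and no other was called. CLDN5 was not called with normexp background correction (0.46) or with the slide pair as a random block (adjusted p = 0.0503 in limma). PECAM1 and EMCN were dim throughout, and VWF had a log2 fold change of 1.004 (adjusted p = 0.0516 in limma). The mean log2 signal of the list was 4.44 to 4.63 on CTL arrays and 4.57 to 4.92 on BC arrays. Of 10 mural cell markers, TAGLN, an actin-binding gene of smooth muscle, rose by 1.33 and ABCC9 fell by 0.91, with list means of 6.39 to 6.79 and 6.57 to 6.86, and PDGFRB had 0.045. The call of ABCC9 was lost when any of 7 single arrays was left out (adjusted p up to 0.135) and with normexp background correction (−0.27). The part of vascular cells in these changes was not tested.

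Among mitochondrial genes, COX6A2 rose and MCUB fell, and no other listed gene was called. Of 69 genes of the respiratory chain 1 was called, of 60 genes of mitochondrial calcium, carriers and dynamics 1, and of 59 genes of mitochondrial enzymes none (1.45%, 1.67% and 0%, against 3.6% of all genes). Of the respiratory chain genes, 57 had a log2 fold change above 0 and 12 below, with a median of 0.10 and a range from −0.47 to 0.82. For the 30 complex I genes the median was 0.11 and the range −0.13 to 0.31. COX6A2, which encodes the heart and muscle form of a cytochrome c oxidase subunit, rose from 10.13, 10.44, 10.43 and 10.54 to 11.32, 10.99, 11.42 and 11.10 (log2 fold change 0.82, SE 0.169, limma adjusted p = 0.0131). With the slide pair as a random block the adjusted p of COX6A2 was 0.106, and it was called within neither slide pair.

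MCUB encodes a subunit that lowers calcium uptake through the mitochondrial uniporter. Its log2 signal was 10.12, 10.14, 9.88 and 10.13 on the CTL arrays and 8.28, 8.16, 8.06 and 7.89 on the BC arrays, a 3.91-fold fall (SE 0.0888 on the log2 scale, limma adjusted p = 1.55e-06). The groups stood more than 1.5 units apart. On the TTX arrays it read 11.09, 11.14, 11.14 and 11.12, above every CTL value (log2 fold change 1.05). Of the other 10 measured genes of the uniporter complex and of calcium exchange, 1 had a log2 fold change above 0, and none was called: MICU3 had 0.24 and the sodium-calcium exchanger gene SLC8B1 −0.35. PPARGC1A, the regulator of mitochondrial biogenesis, had 0.058.

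Transcription factor genes moved in both directions. Of 101 activity-regulated factors, 8 rose and 4 fell (11.9% called, median 0.00). None of 15 FOS, JUN and ATF genes was called. FOS read 10.20, 9.93, 10.74 and 10.03 on the CTL arrays and 10.45, 10.62, 10.71 and 10.54 on the BC arrays (log2 fold change 0.35, SE 0.152), and the groups overlapped. FOSB had −0.038 and JUNB −0.054, and JUN had −0.58 (SE 0.0678, limma adjusted p = 0.000443), a difference that passed the false discovery rate and lay just short of the fold threshold.

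NPAS4, NR4A1 and NR4A2, genes of immediate early factors that firing neurons induce, rose, although NR4A1 was not called with the slide pair as a random block. NPAS4 rose 2.34-fold, from 6.21, 6.11, 6.65 and 5.70 to 7.33, 7.50, 7.58 and 7.17 (SE 0.198, limma adjusted p = 0.00336). NR4A2 rose 2.25-fold and NR4A1 1.83-fold, the latter from 12.60, 12.37, 13.07 and 12.20 to 13.33, 13.29, 13.66 and 13.44. With TTX the 3 genes had log2 fold changes of −0.83, −0.74 and −1.34. NFIL3, a leucine zipper repressor of clock and immune genes, rose 2.33-fold, ID3, an inhibitor of bHLH factors, 1.75-fold, and the class IIa deacetylase genes HDAC5 and HDAC9 1.75-fold and 1.59-fold. ESR1, the estrogen receptor alpha gene, was dim on all CTL arrays and above background on 3 BC arrays, at least 1.41-fold higher. Another HDAC5 probe had 0.32 and was not called.

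The EGR and KLF zinc finger genes, also early response genes, went down or were not called. EGR2 fell 3.08-fold, from 10.73, 10.77, 11.02 and 11.06 to 9.499, 9.29, 9.09 and 9.19 (log2 fold change −1.62, SE 0.136, limma adjusted p = 7.08e-05), and no value of one group came within 1.2 of the other. KLF4 fell 2.01-fold and EGR3 1.68-fold. EGR1 had −0.44 (adjusted p = 0.104 in limma) and EGR4 0.0081, neither called. On the TTX arrays EGR2 had a log2 fold change of 0.40 and was not called. THRA, the thyroid hormone receptor alpha gene, fell by 0.59. It was under the fold threshold when CTL replicate 1 or 2 or BC replicate 1 or 2 was left out, and ESR1 lost its call for 7 of 8 single arrays (adjusted p up to 0.102). EGR3, HDAC9 and ESR1 were not called with normexp background correction.

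**Figure D4:**
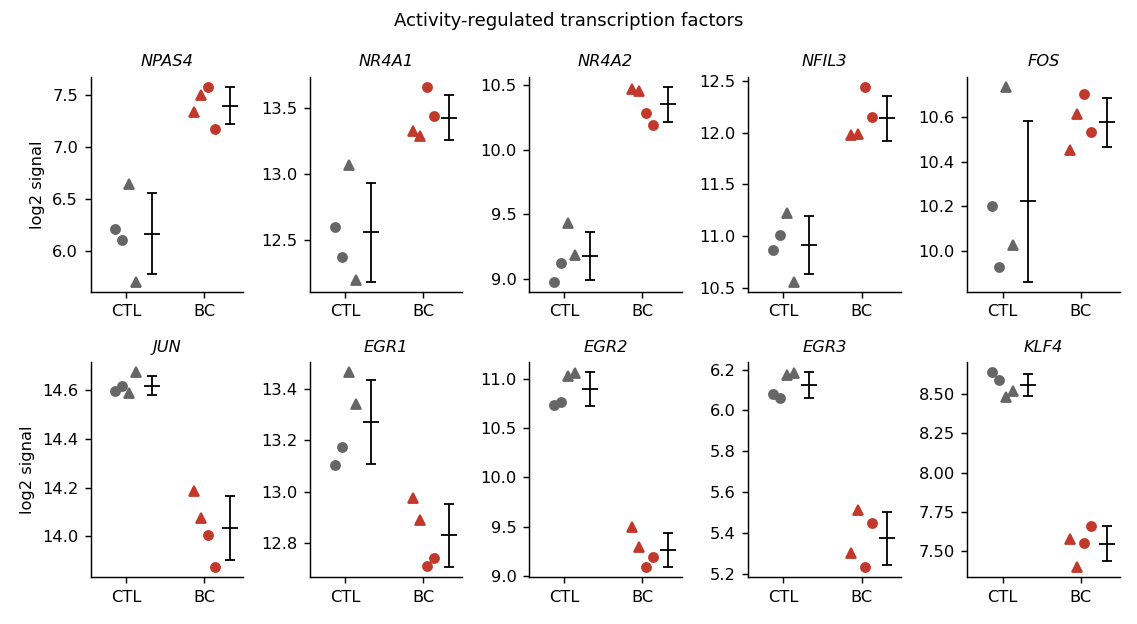
Log2 signal of 10 activity-regulated transcription factor genes on each of the 4 CTL (grey) and 4 BC (red) arrays; circles are arrays of slides 1 and 3, triangles arrays of slides 2 and 4, and the black bars give the mean and SD of 4 arrays. NPAS4, NR4A1, NR4A2 and NFIL3 lie higher with BC, EGR2, EGR3 and KLF4 lower, and the groups overlap for FOS.

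Among factors of neuronal identity there were 4 rises and 3 falls in 86 genes (8.14% called, median 0.01). POU3F1, a POU homeobox gene of cortical and CA1 neurons, rose from 8.84, 9.03, 9.23 and 9.19 to 9.95, 10.08, 9.82 and 9.96 (log2 fold change 0.88, SE 0.116). LEF1, the nuclear partner of beta-catenin, rose by 0.88, ZBTB16 by 0.72 and SMAD7, an inhibitor of TGF-beta signaling, by 0.59. NEUROD2, a bHLH factor of glutamatergic neurons, fell from 13.66, 13.75, 13.32 and 13.66 to 12.89, 12.76, 12.93 and 12.95 (log2 fold change −0.72, SE 0.102), and SOX11, a factor of immature neurons, fell by 0.67. With TTX these 2 genes had log2 fold changes of 0.75 and 0.97. PROX1, which marks dentate granule cells, fell by 0.72 and was above background on 1 of 4 BC arrays. Leaving out any of 5 single arrays ended the calls of PROX1 and ZBTB16 (adjusted p up to 0.0818 and 0.0643), SOX11 had −0.58 without CTL replicate 2, and SMAD7 was under the fold threshold without CTL replicate 1 or 4 or BC replicate 3 or 4 (log2 fold change from 0.51). With normexp background correction POU3F1 and NEUROD2 were still called and the other 5 were not.

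Markers of the neurons themselves bear on these values. Of 9 glutamatergic markers NEUROD2 and NRGN fell, RBFOX3 (NeuN) had a log2 fold change of −0.0078, and the mean log2 signal of the list was 11.7 to 12.0 on CTL arrays and 11.5 to 11.7 on BC arrays. Of 16 interneuron markers the neuropeptide genes NPY and VIP rose by 0.80 and 1.09 and CALB2 fell by 0.80, with list means of 11.6 to 11.7 and 11.7 to 11.9. GAD1 and SLC32A1 had 0.22 and −0.19 and were not called. VIP had 1.63 within slides 1 and 3 and 0.55 within slides 2 and 4, and its call was lost for 5 of 8 single arrays (adjusted p up to 0.0875), as was that of NRGN for 4 (up to 0.0668). None of 12 oligodendrocyte lineage markers was called. The part of cell composition in the changes of identity factors was not tested.

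Among growth factors and their receptors, falls outnumbered rises. Of 72 genes of growth factors and their receptors 4 rose and 9 fell (18.1% called), with a median log2 fold change of −0.07. BDNF, the neurotrophin that activity induces, rose 2.13-fold, from 11.63, 11.87, 12.15 and 11.53 to 12.79, 12.79, 13.04 and 12.93 (SE 0.133, limma adjusted p = 0.0006), and its other probe rose by 1.20. NGFR, the p75 neurotrophin receptor gene, rose 3.88-fold, from 7.97, 7.83, 8.54 and 7.30 to 9.75, 9.71, 9.90 and 10.09. On the TTX arrays BDNF and NGFR had log2 fold changes of −1.45 and −1.81. GFRA2, a receptor of neurturin, fell from 10.65, 10.60, 10.58 and 10.39 to 9.85, 9.85, 9.87 and 9.97 (log2 fold change −0.67, SE 0.0638) and had 0.999 with TTX. NTRK2, the BDNF receptor gene, had −0.16 and was not called.

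In the TGF-beta family GREM1, a secreted antagonist of bone morphogenetic proteins, rose 2.29-fold, from 9.05, 9.17, 9.45 and 8.999 to 10.12, 10.38, 10.48 and 10.49, and BMP3 rose by 0.79. CHRD (chordin), another such antagonist, fell by 0.70, with −0.62 for its other probe, which was not called. TGFB3 fell from 9.85, 10.03, 9.44 and 9.67 to 8.72, 8.67, 8.70 and 8.91 (log2 fold change −1.0, SE 0.116), INHBA, the activin subunit gene, by 0.98, and GDF10 by 0.73. WNT4 fell by 1.21, SFRP1, a secreted Wnt antagonist, by 1.11, and FGF18 by 0.76. SFRP1 had −1.67 within slides 1 and 3 and −0.54 within slides 2 and 4, and it was not called without CTL replicate 1 or 2 (adjusted p up to 0.0534). INHBA was not called with normexp background correction.

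The list of kinase and G protein feedback genes, which holds brakes on these signals as well as exchange factors and kinases that pass them on, had 18 rises and 3 falls among 64 (32.8% called, against 3.6% of all genes, median 0.11). Of 18 genes of MAP kinase phosphatases and Sprouty proteins, which brake the ERK pathway, 7 rose and none fell. DUSP4 rose 1.89-fold, from 7.39, 7.34, 7.39 and 7.12 to 8.04, 8.17, 8.46 and 8.26 (SE 0.098, limma adjusted p = 0.000281). DUSP1 and DUSP6 rose by 0.69 and 0.68, and SPRY1, SPRY2, SPRY4 and SPRED3 by 0.78, 0.87, 0.72 and 0.74 on the log2 scale. The promoter window of DUSP1 holds the CRE letters at base −124.

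Of 14 RGS genes, whose products switch G proteins off, 4 rose. RGS4 rose 2.53-fold, from 14.90, 14.90, 15.30 and 14.84 to 16.37, 16.32, 16.41 and 16.20 (log2 fold change 1.34, SE 0.1), and read 12.50, 12.61, 12.45 and 12.47 on the TTX arrays, below every CTL value. RGS9, RGS12 and RGS14 rose by 0.86, 0.79 and 0.69. Among Ras and Rap regulators the exchange factor gene RAPGEF5 rose 2.38-fold, and the small GTPase genes RRAD, RASL11B and RASD1 by 0.82, 0.66 and 0.63. RASGRP2, a calcium-gated Rap activator, fell from 11.73, 11.81, 11.09 and 11.10 to 10.66, 10.01, 9.31 and 9.98 (log2 fold change −1.44, SE 0.273), with −2.12 within slides 1 and 3 and −0.76 within slides 2 and 4. The kinase genes SGK1, PLK3 and CAMK1G rose by 0.86, 0.78 and 0.62, and CAMKK1, a kinase that activates CaM kinases, and CAMK2N1, an inhibitor of CaMKII, fell by 0.83 and 0.89. RASD1 lost its call for 6 of 8 single arrays (adjusted p up to 0.106), and its other probe had −0.19. CAMK1G without CTL replicate 4 or BC replicate 3 (both 0.56), DUSP1 without CTL replicate 4 (0.58) and DUSP6 without CTL replicate 2 (0.55) fell under the fold threshold. SPRY4, SPRED3 and RASD1 were not called with normexp background correction, and the groups of RASD1 overlapped.

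Of 29 genes of GABA and glutamate receptors, through which the drug and the network act, 1 was called (3.45%, against 3.6% of all genes). None of 13 GABA-A receptor subunit genes was called. Of 16 AMPA, NMDA and kainate receptor genes GRIN3A fell by 0.63, and 12 had a log2 fold change below 0, with a median of −0.18. GRIA1 had −0.086, GRIA2 −0.27 and GRIN2A −0.45. GRIN3A was under the fold threshold without BC replicate 3 or CTL replicate 2 (log2 fold change up to −0.53) and with normexp background correction (−0.39).

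Prolonged bursting can harm neurons, so stress genes were read as well. Of 39 measured, CRYAB, a small heat shock protein gene, rose 2.18-fold, from 12.77, 12.34, 12.74 and 12.66 to 13.63, 13.73, 13.93 and 13.72 (SE 0.162), and HSPA4 fell by 0.97, and the list median was 0.04. HSPA4 had −1.56 within slides 1 and 3 and −0.38 within slides 2 and 4, its other probe had −0.01, and its call was lost for 6 of 8 single arrays (adjusted p up to 0.0968). None of 20 genes of endoplasmic reticulum stress was called, and HSPA5 and DDIT3 had 0.12 and −0.036.

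The slide pairs bear on all of these values. All 117 called genes of the 14 lists had the same direction on each of the 4 slides. The calls were made on these same arrays. Groups that do not overlap must have the same direction on every slide, so the selection largely fixed this agreement. The median size of the log2 fold change of the 117 genes was 0.99 within slides 1 and 3 and 0.79 within slides 2 and 4. Of the 117, 93 changed more within slides 1 and 3. The smallest rise within slides 2 and 4 was 0.33 and the smallest fall −0.34. Of the 117 genes, 86 were called in all 8 fits that left out 1 array. With the slide pair as a random block 87 of the 117 were called, and MMP9, COX6A2, NR4A1 (adjusted p = 0.0755 in limma) and SELE (0.113) were among those lost.

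**Figure D5:**
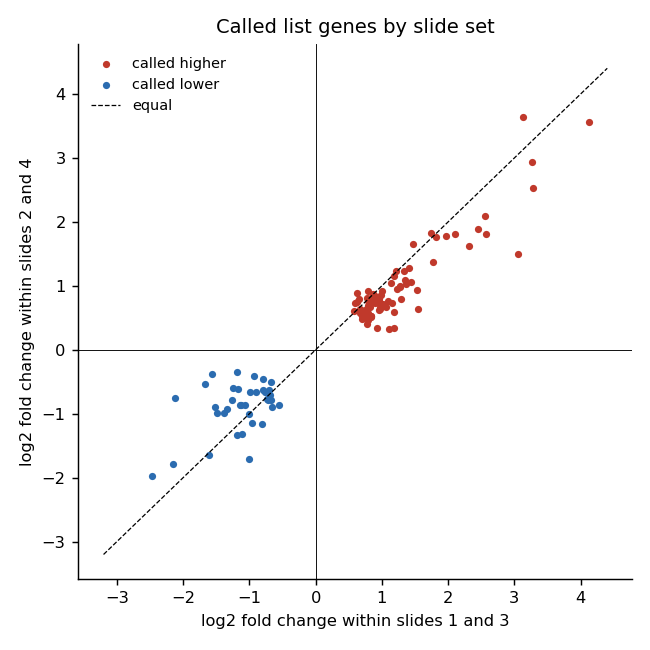
Log2 fold change (BC minus CTL) of the 117 called list genes within slides 1 and 3 (2 arrays per group, horizontal axis) and within slides 2 and 4 (2 arrays per group, vertical axis); red points were called higher, blue points lower, and the dashed line marks equal values. Every point lies in the lower left or upper right quadrant, which calling on these same arrays largely fixed. Most lie nearer to 0 on the vertical axis.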

How the data were processed

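RNA of 12 samples was labelled with Cy3 and hybridized to 1-colour Agilent whole rat genome 4x44K arrays, 4 each for CTL, BC and TTX. The authors deposited the scanner intensity of each spot from Feature Extraction 9.5.1.1, background-subtracted in its processed signal, with probe coordinates on rn4. They also deposited a log2 table, quantile-normalized with an unstated background step. It tracks the median spot intensity, leaves 1131 values of BC replicate 2 empty, and served as an alternative.

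Here the processed signal was quantile-normalized and log2-transformed, with control spots and outlier-flagged spots left out, and fitted with limma 3.58.1 in R 4.3.3 (lmFit and eBayes) on all 12 arrays with 1 mean per group, following the study's methods. Adjusted p-values are Benjamini-Hochberg values over all probes, and calls needed a false discovery rate under 0.05 with a change by a factor of 1.5 or more either way. Genes were named from the array files (21440 probes) or through RefSeq accessions, symbols and synonyms (10813 and 221 by accession, 5133 by symbol, 3405 by synonym). The brightest probe represented a gene. A gene dim on every array of a group has only a bound there: the brighter group's mean was set against, per array of the other group, the higher of its own signal and the lowest signal among probes well above background ("at least N-fold").

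The genes named in the text were taken from the 20 largest rises and the 20 largest falls among called genes well above background on all arrays of the brighter group without overlap, not all of which are named, and from 14 gene lists and 8 marker lists, beside 2 control genes. Of 1066 list genes 985 were found. The comparison, its members and the lists were chosen with earlier results of these data known, so counts over a list carry no test. The number of arrays limits the precision. Same-numbered BC and CTL arrays deviated in opposite directions (correlations −0.348 to −0.241), so numbers were not taken to pair samples. Arrays on the same pair of slides deviated together (0.197 to 0.335). The fitting script was tested on simulated data. A few measured genes are not reported here. Alternatives covered background correction, scaling, the dim-probe filter, slides, probe averaging and each array left out.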

Additional observations from a re-analysis of the deposited data

Results flagged for a closer look

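Within each group of 4 arrays, the gap between the highest or lowest array and its nearest neighbour was divided by the range of the group. This was done for 214 of the genes named in the text, and values above Dixon's critical value for 4 samples are given here. Of 428 such groups 31 (7.24%) passed, where chance flags about 1 in 20.

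CTL replicate 1 was the highest of its group, apart from the others, for TMPRSS11D (ratio 0.844, log2 signal 1.47) and NCAN (ratio 0.86, log2 signal 10.70). CTL replicate 1 was the lowest of its group, apart from the others, for OR10AL7 (ratio 0.863, log2 signal 1.19), MMP8 (ratio 0.917, log2 signal 1.23) and TYROBP (ratio 0.898, log2 signal 6.18). CTL replicate 2 was the highest of its group, apart from the others, for CNMD (ratio 0.893, log2 signal 4.53). CTL replicate 2 was the lowest of its group, apart from the others, for TNFRSF1B (ratio 0.846, log2 signal 2.88) and SLC8B1 (ratio 0.905, log2 signal 9.34). CTL replicate 3 was the highest of its group, apart from the others, for CCL3 (ratio 0.904, log2 signal 2.42), TNF (ratio 0.936, log2 signal 3.27) and RGS4 (ratio 0.865, log2 signal 15.30). CTL replicate 3 was the lowest of its group, apart from the others, for MCUB (ratio 0.908, log2 signal 9.88). CTL replicate 4 was the highest of its group, apart from the others, for MMP7 (ratio 0.908, log2 signal 1.53) and AIF1 (ratio 0.99, log2 signal 1.55). CTL replicate 4 was the lowest of its group, apart from the others, for LUM (ratio 0.929, log2 signal 12.07), DUSP4 (ratio 0.839, log2 signal 7.12), RGS14 (ratio 0.847, log2 signal 10.80), RRAD (ratio 0.853, log2 signal 7.79) and DDIT3 (ratio 0.912, log2 signal 11.86).

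BC replicate 2 was the highest of its group, apart from the others, for NTRK2 (ratio 0.877, log2 signal 15.28) and COL1A2 (ratio 0.954, log2 signal 12.45). BC replicate 2 was the lowest of its group, apart from the others, for TGM2 (ratio 0.869, log2 signal 8.49) and ACVRL1 (ratio 0.86, log2 signal 5.79). BC replicate 3 was the highest of its group, apart from the others, for SERPINB2 (ratio 0.838, log2 signal 6.30), CX3CR1 (ratio 0.934, log2 signal 1.44), TMEM119 (ratio 0.871, log2 signal 3.05), CLDN5 (ratio 0.913, log2 signal 5.71) and DUSP1 (ratio 0.91, log2 signal 10.60). BC replicate 4 was the highest of its group, apart from the others, for AIF1 (ratio 0.96, log2 signal 1.76). BC replicate 4 was the lowest of its group, apart from the others, for RASD1 (ratio 0.873, log2 signal 9.65) and MYOD1 (ratio 0.8291, log2 signal 1.26).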

How the results depend on the processing

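No call turned its direction under any of 24 alternative settings for 152 called genes named in the text. All settings used these same arrays, and groups that do not overlap can hardly change direction. Selection thus largely fixed this result, which adds no support to the calls. The 1286 calls in all (762 higher, 524 lower) became 664 (396 and 268) with normexp background correction, 727 (436 and 291) with the median signal and no background correction, and 728 (467 and 261) with the deposited log2 values. Without the fold threshold 2888 genes passed (1644 and 1244), among them 192 list genes instead of 117. Arrays of a slide pair treated as a random block left 533 genes higher and 345 lower. Within slides 2 and 4 alone 62 genes were called (38 and 24), of which 3 were list genes, and 11 of the 152 named genes kept their call. With normexp correction 100 of the 152 did. Averaging the arrays of a slide pair left 0 called in limma (0 higher, 0 lower, 0 list genes, 0 of the named genes), with 7830 genes at an unadjusted p under 0.05. Leaving out 1 array gave 1060 to 1344 calls, 613 to 809 higher, 408 to 597 lower, 95 to 121 list genes and 126 to 142 of the named genes. Fitted with a replicate block, although the numbers do not pair the arrays, 653 genes were called higher and 473 lower. Scaling to the 75th percentile, the slide as a block and a filter on probes well above background each kept the counts within 1.5 times. Of the 152 named genes, 11 kept their call under all settings but the averaging, EGR2, MCUB, MX1, DIO3 and OR10AL5B among them. The cause of the losses under normexp correction and of the difference between slide pairs was not tested.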

Other observations

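Genes of striated muscle appeared among the rises, and a list of them was written after these values were seen, so its counts are a description. Of 56 measured genes 14 rose and 2 fell (28.6% called, against 3.6% of all genes), with a median log2 fold change of 0.11. PERM1, a regulator of muscle metabolism, had a log2 fold change of 3.74 (limma adjusted p = 0.000369) and was above background on 1 of 4 CTL and all 4 BC arrays. DHRS7C, a gene of the sarcoplasmic reticulum, TTN (titin) and MYL1 (a myosin light chain) were dim on every CTL array and at least 2.6-fold, 3.64-fold and 1.77-fold higher with BC. CKMT2, which encodes the muscle form of mitochondrial creatine kinase, rose by 1.37, SLN (sarcolipin) by 0.94, MYH2 (a fast myosin heavy chain) by 0.97, TNNT1 by 0.92 and NEB (nebulin) by 1.22. The cardiac genes MYL3 and TNNT2 fell by 1.13 and 0.67.

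With normexp background correction the log2 fold change of PERM1 was 1.05, still called, and that of TTN was 0.54, not called. DHRS7C, MYL1, CKMT2, MYH2, TNNT1, NEB and MYL3 were not called either under that correction, whereas SLN and TNNT2 were. RYR1, STAC3, LDB3 and CACNA1S, also among the 14 rises, were not called under it. Of the factors that drive muscle cell formation, MYOD1 and MYF6 were dim on all CTL and BC arrays, while MYOG was above background on all 8 and MYF5 on 7 of the 8, and none of these was called. CKM, the muscle creatine kinase gene, was dim throughout. The part of muscle cells in these rises was not tested. NEB lost its call when any of 6 of 8 single arrays was left out (adjusted p up to 0.0889). RYR1 lost its call in all 8 such fits, STAC3 in 7 and LDB3 in 4. Another RYR1 probe rose by 0.78, whereas those at −0.048, −0.18, 0.33 and −0.22 were not called. The other CACNA1S probe had −0.92 and the other LDB3 probes had 0.079 and −0.60, none of them called. On the TTX arrays PERM1 and NEB had log2 fold changes of −1.29 and −0.84.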
